A study of Danio rerio with 8 samples.

Results

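Solute carriers are membrane proteins that move sugars, amino acids, ions, metals, lipids, nucleotides and vitamins across the plasma membrane and across the membranes of organelles. The genes described here are the rows of a zebrafish (Danio rerio) embryo array table whose RefSeq transcript identifier matched a gene symbol that starts with slc and a digit. These were 63 rows, 1 per gene, in 30 numbered families, out of 37157 rows in the table. Only 7.17% of all rows matched 1 symbol, so solute carrier genes without such a match are not covered. The rule goes by name and uses no array values, although it was set with earlier results of these data known, and no filter on low values was applied, so all 63 entered every test.

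Whole wildtype embryos were grouped by stage and oxygen. The groups, with the number of arrays that hold values, were segmentation embryos (8 somites, 12 h) in hypoxia with 1 array, segmentation embryos in normoxia with 2, gastrula embryos (shield, 6 h) in hypoxia with 2, and gastrula embryos in normoxia with 2. Hypoxia was 1 to 2 h in medium kept below 1% oxygen, and each sample pooled 12 to 15 dechorionated embryos. The labels name biological replicates, so p-values measure the spread between pools of embryos. A second hypoxic segmentation sample has an empty column, so every result for that group rests on 1 array, which was assumed to vary like the others.

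Embryos at these stages live on yolk and take up no food, and transport between yolk, cytoplasm and organelles supplies growth. Mitochondrial carriers, the largest solute carrier family, pass metabolites, nucleotides and cofactors through the inner mitochondrial membrane, where oxygen is used. Carriers of the Golgi and the endoplasmic reticulum bring in the donors for glycosylation and sulfation, and zinc, calcium and nucleoside carriers set the cell's supply of these solutes.

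All values are log2, and a difference of 1 is a 2-fold change. Differences carry the standard error (SE) of a linear model with group and labelling dye, fitted over all rows in limma, and calls were made at a Benjamini-Hochberg adjusted p of 0.05 over all 37157 rows. Array medians over all rows lay between 8.51 and 8.74. The interquartile range over all rows was 2.18 and 2.31 on the hypoxic gastrula arrays, against 2.75 and 2.86 on the normoxic gastrula arrays. Over the solute carrier rows it was 1.096 and 1.119 on the hypoxic gastrula arrays, against 1.58 and 2.08 on the normoxic ones. The part of this difference in spread in the results was not tested. Replicate arrays of a group differed by a median of 0.18 to 0.24 over the solute carrier rows, and by up to 1.33, at slc22a13b in normoxic segmentation embryos. In whole embryos, fewer cells of a type and less RNA per cell cannot be told apart.

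**Figure D1:**
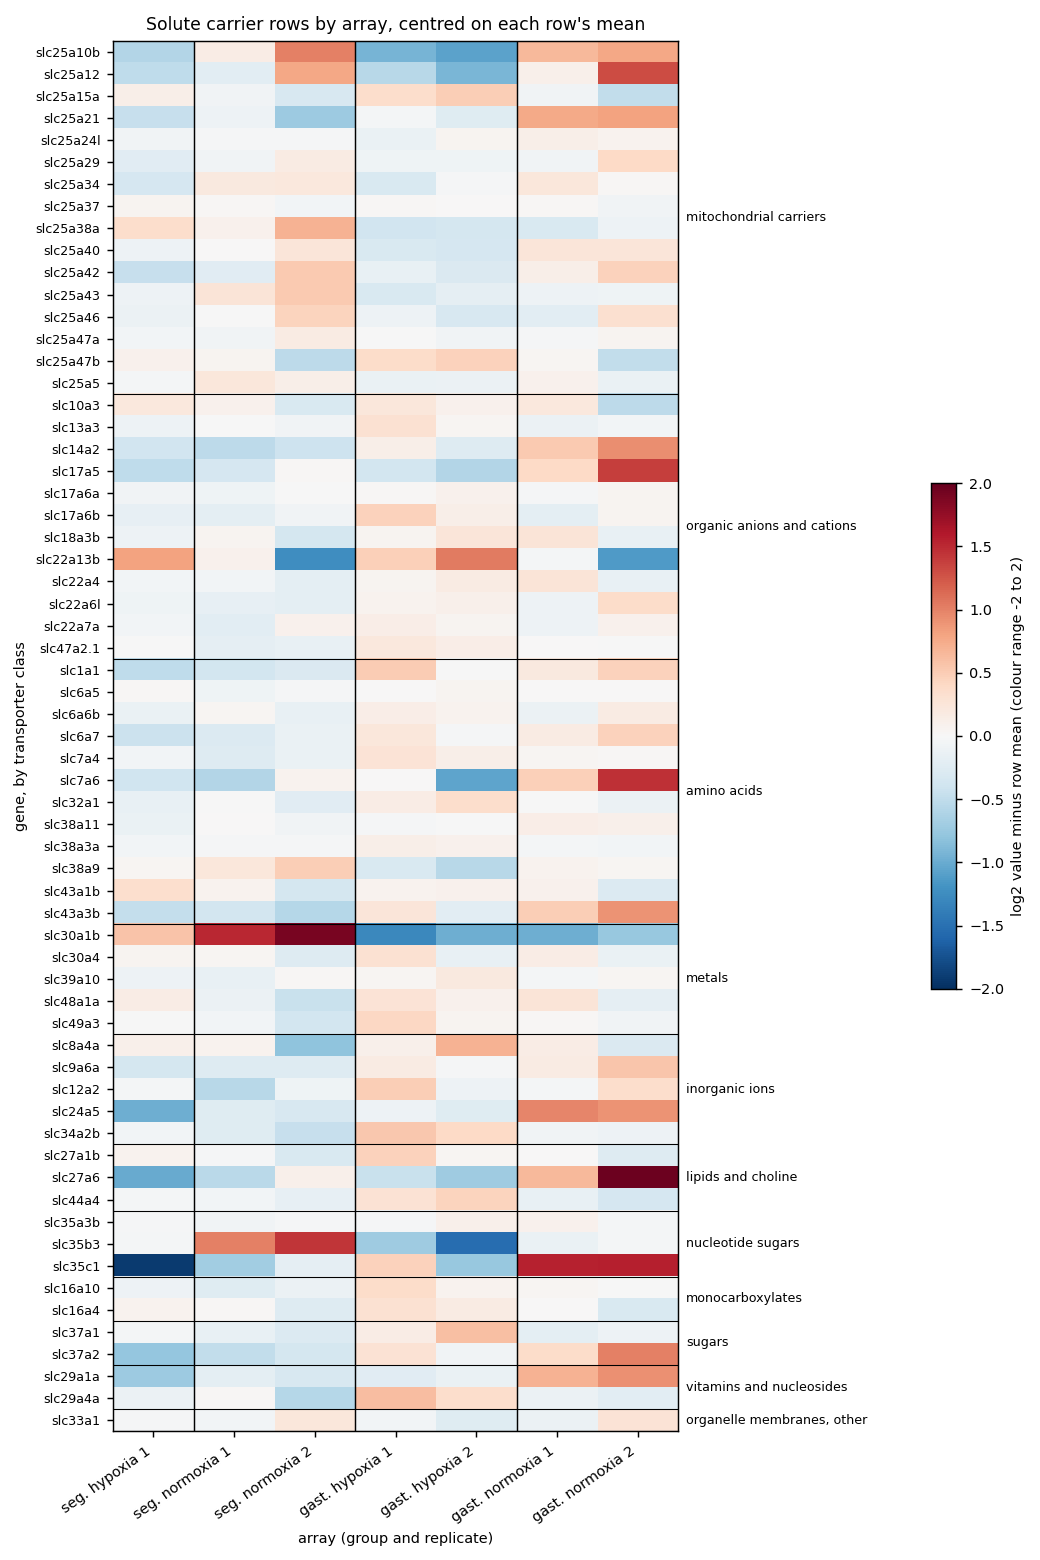
Values of the 63 solute carrier rows (down the page, by transporter class) on the 7 arrays (across, by group), as log2 value minus the row's mean, with red above and blue below the mean. The rows slc35c1, slc27a6 and slc24a5 are redder on both normoxic gastrula arrays than on the other arrays, and slc30a1b is red on all 3 segmentation arrays.

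The first comparison asked what low oxygen did to solute carrier transcripts at the gastrula stage. No solute carrier row passed the adjusted threshold in limma, and neither did any other row (0 of 63 and 0% of all rows). At an unadjusted p under 0.05 there were 17 rows, 4 higher and 13 lower in hypoxia. That is 27% of the solute carrier rows, beside 26.8% of all rows, so the rows described here stood, as a set, near the background. The 13 lower rows were 20.6% of the solute carrier rows, beside 15.8% of all rows, and the 4 higher rows were 6.35%, beside 11% of all rows. After median centring, which shifts every row by -0.18 here, the split was 0 higher and 14 lower (22.2%, beside 27.6% of all rows in either direction). After a further quantile normalization it was 3 higher and 11 lower (22.2%, beside 23.7%).

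The differences were spread around 0. In hypoxia 32 rows were higher and 31 lower, with a median of 0.017, beside a median of 0.015 over all rows. Median centring shifted the all-row median by -0.18, and then 17 solute carrier rows were above 0 (27%, beside 35.1% of all rows) and 46 below. After quantile normalization 21 were above 0 (33.3%, beside 48.6% of all rows) and 42 below, so the even split holds for the values as deposited. The hypoxic arrays lay wholly below the normoxic ones for 23 rows (36.5%, beside 29.8% of all rows) and wholly above them for 17 rows (27%, beside 31.5%). Differences of at least 1 in size were found for 9 rows (14.3%, beside 15.2% of all rows), of which 8 were lower in hypoxia, and 9.80% of all rows were lower by that size.

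**Figure D2:**
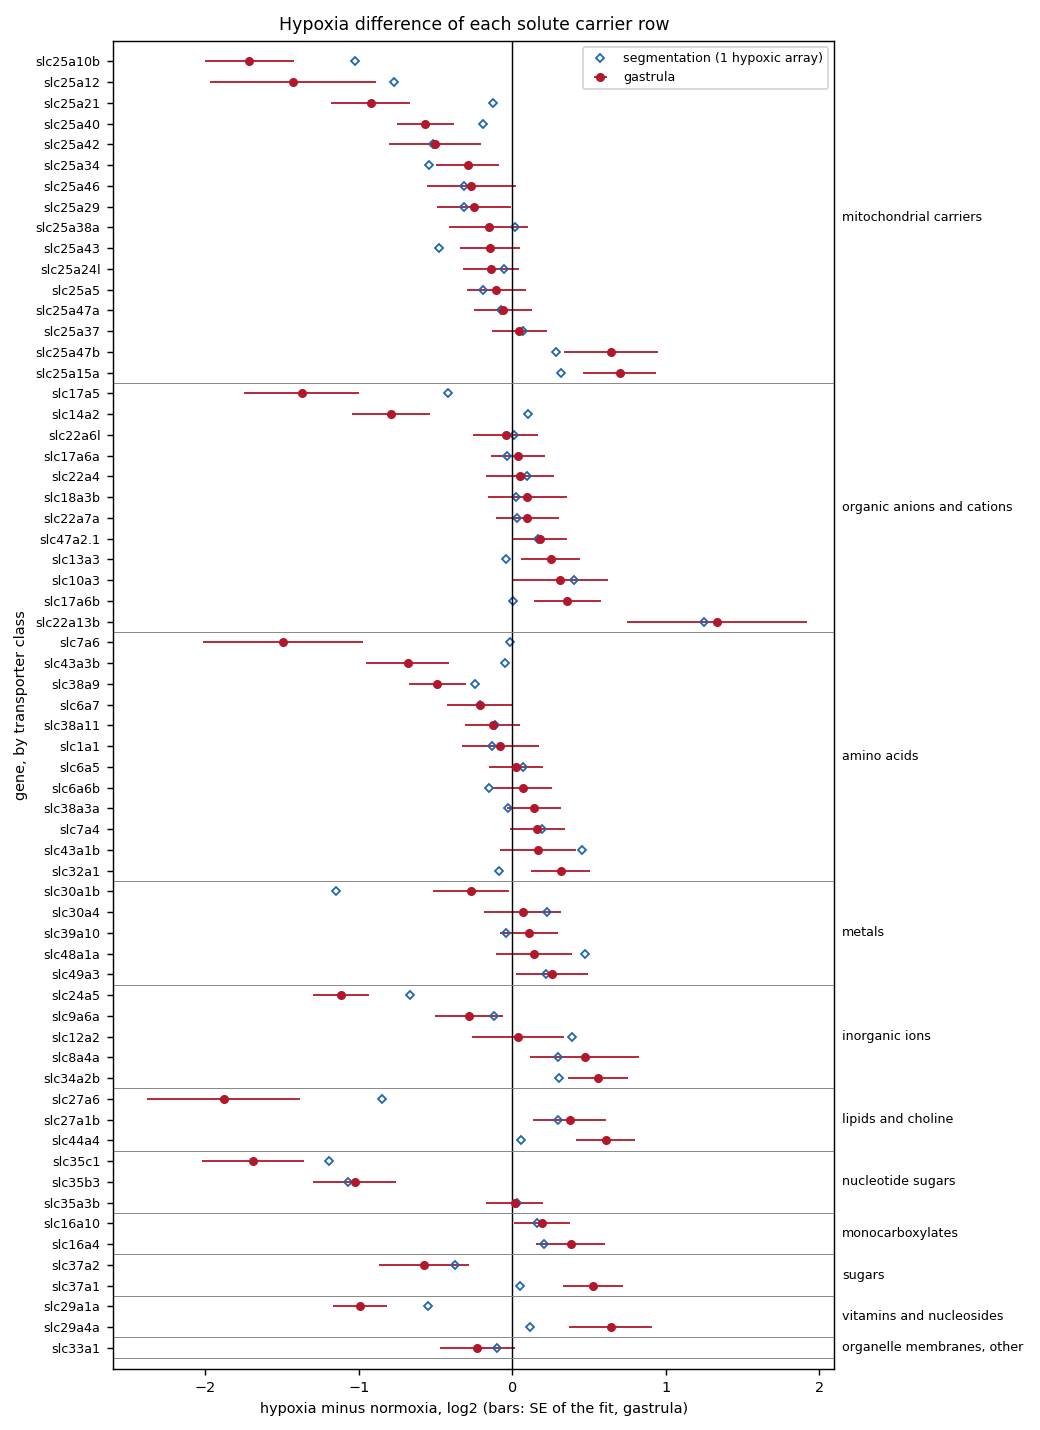
Hypoxia minus normoxia (log2, across) for each solute carrier row, by class down the page: filled circles with SE bars for the gastrula and open diamonds for segmentation, where hypoxia has 1 array. The longest differences point to lower values in hypoxia, from slc27a6 at -1.88, while slc22a13b at 1.33 is the farthest to the right.

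Mitochondrial carriers, with 16 rows, were the group with most values below 0. In gastrula hypoxia 13 of 16 were below 0, with a median of -0.20 and a range of -1.71 to 0.70, and 14 of 16 were below 0 after either quantile normalization or centring. Over all rows 51.5% were above 0 as deposited, 48.6% after quantile normalization and 35.1% after centring. The share over all rows depended on level, as described below. As deposited, 68.3% of all rows were below 0 in the upper 4 of 10 level bins, and 35.3% in the lower 6. The mitochondrial carriers were not matched to other rows by level. The hypoxic arrays lay below the normoxic ones for 10 of them (beside 29.8% of all rows) and above for 2 (beside 31.5%). None passed the adjusted threshold.

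The dicarboxylate carrier slc25a10b (NM_201172), which exchanges malate and succinate for phosphate, gave 8.87 and 8.74 in hypoxic gastrulae, against 10.45 and 10.58 in normoxic gastrulae. The hypoxic pair was thus about 3.28-fold lower, with replicates 0.13 apart. The difference of -1.71 ± 0.29 had an adjusted p of 0.067 in limma with dye and 0.035 without dye. Over 17 other settings the adjusted p ran from 0.015 to 0.55 and passed in 6. Among these settings was a crossed pairing of replicates, chosen after seeing the data, in which slc25a10b passed. In segmentation embryos slc25a10b was 9.22 on the hypoxic array, against 9.95 and 10.82 on the normoxic arrays.

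The aspartate-glutamate carrier slc25a12, part of the malate-aspartate shuttle, gave 9.40 and 9.04 in hypoxic gastrulae, against 10.04 and 11.25 in normoxic gastrulae. Its groups did not overlap, but the normoxic arrays were 1.21 apart and the difference was -1.43 ± 0.54 (adjusted p = 0.18, limma). The 2-oxodicarboxylate carrier slc25a21 gave 10.09 and 9.88 in hypoxia, against 10.88 and 10.93 in normoxia, a difference of -0.92 ± 0.26. The carrier slc25a40, which in mammals imports glutathione, differed by -0.57 ± 0.19, and the coenzyme A carrier slc25a42 by -0.50 ± 0.30.

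The ornithine carrier slc25a15a of the urea cycle stood on the other side, with 8.58 and 8.73 in hypoxic gastrulae, against 8.16 and 7.75 in normoxic gastrulae (0.70 ± 0.24, adjusted p = 0.15, limma). The related slc25a47b differed by 0.64 ± 0.31, and slc25a47a by -0.061 ± 0.19. The remaining carriers were closer to 0. The ADP/ATP carrier slc25a5 read 15.32 and 15.34 in hypoxia, against 15.54 and 15.32 in normoxia, near the top of the measured range. The heme-linked glycine carrier slc25a38a differed by -0.15 ± 0.26. The others, slc25a24l, slc25a29, slc25a34, slc25a43, slc25a46 and the mitochondrial iron importer slc25a37, lay between -0.29 and 0.046.

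The 3 carriers of nucleotide sugars and sulfate donors held a pair of large differences. The GDP-fucose carrier slc35c1 (NM_001008590), which supplies Golgi fucosylation, gave 11.61 and 10.39 in hypoxic gastrulae, against 12.68 and 12.70 in normoxic gastrulae. Both hypoxic arrays were below both normoxic ones, but they were 1.22 apart, and the difference of -1.69 ± 0.33 had an adjusted p of 0.075 in limma. The sulfate-donor carrier slc35b3 (NM_001039995) gave 9.28 and 8.45 in hypoxia, against 9.84 and 9.94 in normoxia, a difference of -1.03 ± 0.27. The UDP-N-acetylglucosamine carrier slc35a3b read 8.79 and 8.92 in hypoxia and 8.90 and 8.78 in normoxia, so its groups overlapped.

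Among the 5 carriers of inorganic ions, slc24a5 (NM_001030280) had the smallest p of any solute carrier row in this comparison. This potassium-dependent sodium/calcium exchanger of pigment cell organelles is mutated in the zebrafish line golden. It gave 9.28 and 9.13 in hypoxic gastrulae, against 10.35 and 10.28 in normoxic gastrulae. The hypoxic pair was 2.16-fold lower, and the difference of -1.11 ± 0.18 had an adjusted p of 0.066 in limma with dye and 0.026 without dye. Over 17 other settings it ran from 0.026 to 0.55 and passed in 5. The phosphate cotransporter slc34a2b gave 9.69 and 9.55 in hypoxia, against 9.08 and 9.04 in normoxia (0.56 ± 0.19). The sodium/calcium exchanger slc8a4a differed by 0.47 ± 0.36, the sodium-potassium-chloride cotransporter slc12a2 by 0.036 ± 0.30, and the endosomal sodium/proton exchanger slc9a6a by -0.28 ± 0.22.

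The equilibrative nucleoside carrier slc29a1a (NM_001030177) gave 8.64 and 8.73 in hypoxic gastrulae, against 9.57 and 9.78 in normoxic gastrulae. The groups were far apart for their replicate spread, at -0.99 ± 0.18, with an adjusted p of 0.069 in limma with dye and 0.032 without dye. Over 17 other settings the adjusted p ran from 0.032 to 0.55 and passed in 4. Its relative slc29a4a, a monoamine carrier in mammals, lay on the other side at 0.64 ± 0.27.

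The lipid carriers differed among themselves. The fatty acid transport protein slc27a6 (NM_001077386) gave 8.27 and 8.00 in hypoxic gastrulae, against 9.36 and 10.67 in normoxic gastrulae. This was the largest difference of any solute carrier row, -1.88 ± 0.50, but the normoxic arrays were 1.31 apart and the adjusted p was 0.11 in limma. Its relative slc27a1b differed by 0.37 ± 0.24. The choline-like carrier slc44a4 gave 8.17 and 8.33 in hypoxia, against 7.73 and 7.55 in normoxia (0.61 ± 0.19, adjusted p = 0.14, limma).

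Of the 12 rows classed by family as amino acid carriers, 6 were above 0 and 6 below, with a median of -0.025. After quantile normalization 10 of 12 were below 0, and after centring 11, where 48.6% and 35.1% of all rows were above 0. The light chain slc7a6, which exchanges basic for neutral amino acids, gave 9.17 and 8.10 in hypoxic gastrulae, against 9.64 and 10.62 in normoxic gastrulae. Neither group was tight, and the difference was -1.49 ± 0.52. The carrier slc43a3b, which in mammals takes up purine nucleobases, differed by -0.68 ± 0.27. The lysosomal arginine sensor slc38a9 gave 8.38 and 8.13 in hypoxia, against 8.76 and 8.74 in normoxia (-0.49 ± 0.19). Its family member slc38a3a gave 7.50 and 7.47 in hypoxia, against 7.36 and 7.34 in normoxia.

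In the sodium- and chloride-coupled family the taurine carrier slc6a6b gave 7.85 and 7.79 in hypoxia, against 7.60 and 7.89 in normoxia. The proline carrier slc6a7 gave 8.46 and 8.21 in hypoxia, against 8.40 and 8.70 in normoxia. Both overlapped between the groups. The glycine carrier slc6a5, the glutamate carrier slc1a1, the vesicular inhibitory carrier slc32a1, slc7a4, slc43a1b and slc38a11 lay between -0.13 and 0.32.

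Rows classed by family as organic anion and cation carriers, the urea carrier slc14a2 among them, tended to the other side. Of these, 9 of 12 were above 0 (beside 51.5% of all rows), with a median of 0.098. Only 6 of 12 were above 0 after quantile normalization (beside 48.6%) and 5 after centring (beside 35.1%). The organic anion carrier slc22a13b (NM_001077372) gave 9.54 and 10.10 in hypoxic gastrulae, against 9.04 and 7.94 in normoxic gastrulae. The arrays of the groups did not overlap, but with normoxic arrays 1.099 apart the difference of 1.33 ± 0.59 had an adjusted p of 0.23 in limma. Between arrays of the same dye it was 0.51 for Cy3 and 2.16 for Cy5. The other members of its family ran from -0.043 at slc22a6l, with 8.19 and 8.21 in hypoxia, against 8.01 and 8.48 in normoxia, to 0.098 at slc22a7a.

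The lysosomal sialic acid exporter slc17a5 gave 8.20 and 7.97 in hypoxic gastrulae, against 8.97 and 9.95 in normoxic gastrulae (-1.37 ± 0.38, adjusted p = 0.11, limma). The vesicular glutamate carrier slc17a6b of the same family gave 8.08 and 7.74 in hypoxia, against 7.43 and 7.67 in normoxia. The urea carrier slc14a2 differed by -0.79 ± 0.25. The vesicular acetylcholine carrier slc18a3b, the dicarboxylate cotransporter slc13a3, slc10a3, slc17a6a, slc22a4 and the multidrug extruder slc47a2.1 lay between 0.038 and 0.31.

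The remaining classes were small. In gastrula hypoxia the zinc, heme and related carriers slc30a4, slc39a10, slc48a1a and slc49a3 lay between 0.067 and 0.26, and the zinc exporter slc30a1b was at -0.27 ± 0.25. The aromatic amino acid carrier slc16a10 and its monocarboxylate family member slc16a4 were at 0.20 ± 0.18 and 0.38 ± 0.22. The glucose-6-phosphate exchangers of the endoplasmic reticulum stood on opposite sides, slc37a1 at 0.53 ± 0.20 and slc37a2 at -0.58 ± 0.29. The acetyl-CoA carrier slc33a1 of the endoplasmic reticulum was at -0.23 ± 0.24.

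Many solute carriers are linked to the hypoxia response, among them glucose, lactate, cystine and iron carriers. Of a list of 25 such genes, 1 was measured under its name, the mitochondrial iron importer slc25a37. It read 7.60 and 7.58 in hypoxic gastrulae, against 7.59 and 7.50 in normoxic gastrulae, a difference of 0.046 ± 0.18 (adjusted p = 0.91, limma). Its segmentation values were 7.62 in hypoxia, against 7.59 and 7.52 in normoxia. The differences were under their SE at both stages, for a row in the lowest of 10 level bins. The glucose and lactate carriers of the list are not analysed here.

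The hypoxia difference depended on the level of the row. Rows were put into 10 bins of equal size by their mean over the 7 arrays. In the lower 6 bins lay 47 solute carrier rows, of which 19 were below 0 in gastrula hypoxia, with a median of 0.046. In the upper 4 bins lay 16, of which 12 were below 0, with a median of -0.57. Over all rows the medians were 0.11 in the lower bins and -0.35 in the upper bins, with 35.3% of the lower and 68.3% of the upper rows below 0, beside 40.4% and 75% of the solute carrier rows there. After quantile normalization the upper medians were -0.41 for solute carriers and -0.075 for all rows. In the lower bins 30 of 47 solute carrier rows were then below 0, with a median of -0.064, beside 0.0042 for all rows. The level and the difference of a row share the same arrays.

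**Figure D3:**
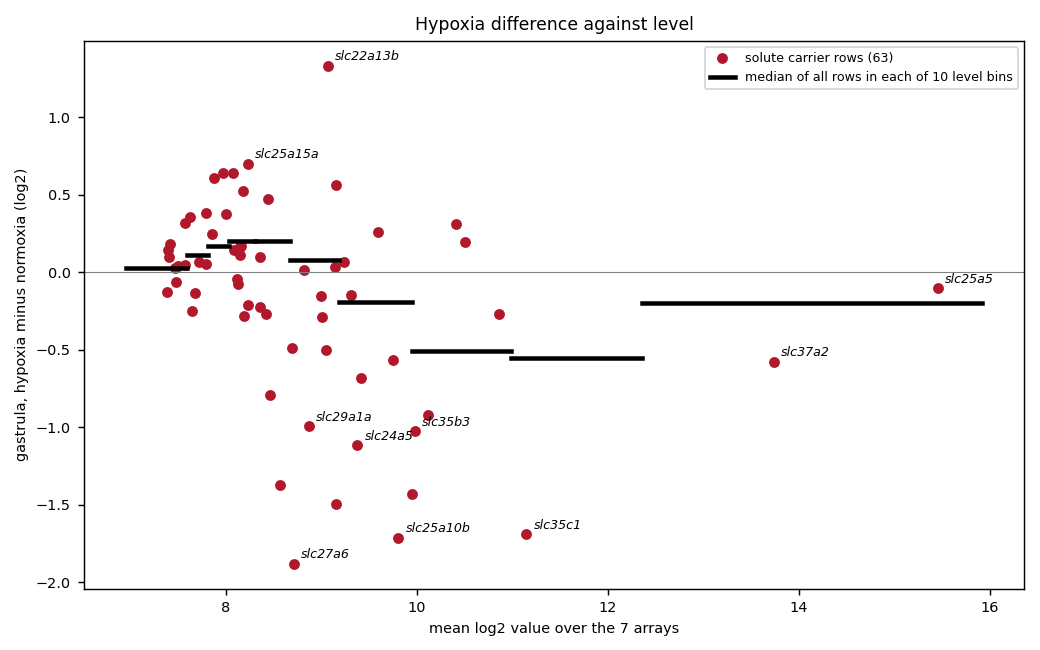
Gastrula hypoxia minus normoxia (log2, up) against the mean log2 value over the 7 arrays (across) for the 63 solute carrier rows (points), with the median of all rows in each of 10 level bins (bars). The bars fall below 0 from the seventh bin on, to -0.56 in the ninth, and slc25a10b, slc35c1 and slc27a6 lie well under the bars at their level.

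The 9 differences of at least 1 had the same direction in both dyes. These rows were picked by size from the same arrays, so this cannot test an effect of dye. In gastrula hypoxia each group had 1 Cy3 and 1 Cy5 array, and 45 of 63 rows had the same sign in both dyes. The share over all rows was not counted. For slc24a5 the differences were -1.07 in Cy3 and -1.15 in Cy5, for slc29a1a -0.93 and -1.05, and for slc25a10b -1.58 and -1.85. These 3 rows were nearly equal in both dyes, and they were the 3 called without a dye term, all lower in hypoxia (3 of 63, or 4.76%, beside 8.14% of all rows). The rows slc35c1 (-1.07 in Cy3 and -2.31 in Cy5), slc27a6 (-1.09 and -2.67) and slc7a6 (-0.47 and -2.52) differed more between dyes, and they were not called without dye either. In both gastrula groups replicate 1 was Cy3 and replicate 2 was Cy5, so within these groups dye and replicate number coincide. In normoxic segmentation embryos the dyes were the other way round. Replicate 2 minus replicate 1 was 0.51 there for slc35c1, against 0.015 in normoxic and -1.22 in hypoxic gastrulae. For slc27a6 these gaps were 0.64, 1.31 and -0.27, and for slc7a6 0.66, 0.99 and -1.08. The dye term of the limma fit had an unadjusted p under 0.05 for 0 of 63 rows. Over all rows it had 681, and 0 passed the adjusted threshold. The cause of the gaps was not tested.

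Stage and tissue markers were also read in these groups, and none was called in gastrula hypoxia. Of 4 markers of early embryos all were below 0 as deposited, with a median of -0.72. After quantile normalization 1 was above 0, with a median of -0.73. Their summed linear level was 33725 to 35792 in hypoxia, against 56428 to 62603 in normoxia. The pluripotency factor nanog was at -2.12 and the egg coat gene zp2.2 at -0.40, neither past the threshold. The 5 segmentation markers summed to 6228 to 9844 in hypoxic gastrulae, against 7308 to 10484 in normoxic gastrulae, which overlap. Of 9 yolk syncytial layer genes 2 were measured, fabp1b.1 and hnf4b, with a sum of 12909 to 15133 in hypoxia, against 6552 to 9241 in normoxia. The sum followed the lipid-binding gene fabp1b.1 at 0.96, while hnf4b lay on the other side at -0.59. Of 8 pronephros genes 1 was measured, osr1, at 841 to 927 in hypoxia, against 2109 to 2533 in normoxia. The 3 of 8 epidermis and ionocyte genes measured summed to 56392 to 60021 in hypoxia, against 54103 to 64352 in normoxia. This sum is mostly krt97 at -0.16, while agr1 at 1.27 and foxi3a at 0.33 had both hypoxic arrays above both normoxic ones, not past the threshold. The 1 of 6 red blood genes measured, hbae3, was at 431 to 540 in hypoxia, against 397 to 416 in normoxia. The part of stage or tissue makeup in the solute carrier differences was not tested.

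At the segmentation stage the same oxygen comparison rested on 1 hypoxic array. In limma 0 of 63 solute carrier rows were called (0% of all rows). At an unadjusted p under 0.05 there were 5, all lower in hypoxia (7.94%, beside 7.09% of all rows in either direction and 4.62% lower). They were slc30a1b, slc35b3, slc24a5, slc35c1 and slc25a10b. In all, 29 rows were above 0 and 34 below, with a median of -0.034, beside -0.012 over all rows.

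The zinc exporter slc30a1b (NM_001089583), which moves zinc out through the plasma membrane, gave 11.44 on the hypoxic segmentation array, against 12.36 and 12.76 on the normoxic ones. The difference was -1.15 ± 0.32, with an adjusted p of 0.62 in limma. The value for slc35b3 was 9.94 in hypoxia, against 10.99 and 11.41 in normoxia (-1.07 ± 0.35), and for slc35c1 it was 9.23, against 10.45 and 10.96 (-1.19 ± 0.43). For each of these the hypoxic array lay below both normoxic arrays by more than those differed from each other.

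The pigment-organelle exchanger slc24a5 read 8.41 in hypoxia, against 9.13 and 9.06 in normoxia (-0.66 ± 0.23), and slc29a1a read 8.14, against 8.67 and 8.55 (-0.55 ± 0.23). In both rows the hypoxic value was below both normoxic values. These rows, like slc30a1b, slc35b3 and slc35c1, were named for a small p in this same comparison. The share of all rows placed this way is not given. Mitochondrial carriers were below 0 for 12 of 16 rows, with a median of -0.19. After quantile normalization 10 of 16 were below 0, and after centring 13. Over all rows 48.3% were above 0 as deposited, 47.3% after quantile normalization and 40.3% after centring. These shares were not matched by level either. At 1.25 ± 0.76 slc22a13b was the 1 row above 1, with 9.87 in hypoxia, against 9.16 and 7.83 in normoxia.

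Over both stages 18 rows had every hypoxic array below every normoxic array of their stage, and 12 rows had every one above. These were 28.6% and 19% of the solute carrier rows, beside 22.2% and 21.6% of all rows. The rows slc13a3, slc14a2 and slc38a3a were separated in opposite directions at the stages (4.76%, beside 4.79% of all rows). The difference between the stages' hypoxia differences was tested directly. In limma 0 of 63 rows passed (0% of all rows), and 0 had an unadjusted p under 0.05, beside 4.22% of all rows.

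The smallest p there belonged to slc30a1b, whose hypoxia difference at segmentation minus that in the gastrula was -0.88 ± 0.40. The next were slc14a2 at 0.89 ± 0.41, slc25a21 at 0.80 ± 0.42, slc44a4 at -0.55 ± 0.32, slc7a6 at 1.48 ± 0.85 and slc17a5 at 0.95 ± 0.61. For slc7a6 the segmentation values were 8.76 in hypoxia, against 8.58 and 9.23 in normoxia, and for slc17a5 8.06, against 8.24 and 8.59. For slc14a2 they were 8.08, against 7.94 and 8.04, and for slc25a21 9.66, against 10.01 and 9.39. For slc44a4 they were 7.84, against 7.82 and 7.72. For slc7a6 and slc25a21 the hypoxic array lay between the normoxic ones, for slc14a2 and slc44a4 it was just above both, and for slc17a5 just below. Each difference was larger than its SE, but the rows were picked for the smallest p in this same test. None passed the threshold.

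The stage comparison in normoxia asked which solute carriers changed between gastrula and 8 somites. In limma 5 of 63 rows passed the adjusted threshold (7.94%, beside 10.1% of all rows). The zinc exporter slc30a1b and the sulfate-donor carrier slc35b3 rose (3.17%, beside 6.21% of all rows called higher). The GDP-fucose carrier slc35c1, the exchanger slc24a5 and the nucleoside carrier slc29a1a fell (4.76%, beside 3.88% called lower). After quantile normalization the split was 1 higher and 3 lower (6.35%, beside 9.8% of all rows, 2137 higher and 1503 lower). After centring it was 1 higher and 4 lower (7.94%, beside 10.3% of all rows, 2337 higher and 1483 lower).

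In normoxia slc30a1b gave 12.36 and 12.76 at segmentation, against 9.89 and 10.11 in the gastrula. All segmentation values were above all gastrula values by more than 2, and the change of 2.56 ± 0.25, or 5.91-fold, had an adjusted p of 0.0076 in limma. It passed in 16 of 17 other settings, with adjusted p from 0.0019 to 0.056, and missed without segmentation normoxia replicate 2.

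The second riser, slc35b3, gave 10.99 and 11.41 at segmentation, against 9.84 and 9.94 in the gastrula (1.31 ± 0.27, 2.48-fold, adjusted p = 0.0496, limma). It lay at the threshold and passed in 6 of 17 other settings, with adjusted p from 0.023 to 0.23. Its family member slc35c1 gave 10.45 and 10.96 at segmentation, against 12.68 and 12.70 in the gastrula, and fell by 1.98 ± 0.33, or 3.95-fold (adjusted p = 0.028, limma). It passed in 14 of 17 other settings (0.010 to 0.16). The family thus held a row that rose and a row that fell, while slc35a3b was at -0.071 ± 0.18.

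The exchanger slc24a5 gave 9.13 and 9.06 at segmentation, against 10.35 and 10.28 in the gastrula. It fell by 1.22 ± 0.18, or 2.34-fold (adjusted p = 0.021, limma), and passed in 11 of 17 other settings (0.0065 to 0.15). The nucleoside carrier slc29a1a gave 8.67 and 8.55 at segmentation, against 9.57 and 9.78 in the gastrula. It fell by 1.06 ± 0.18, or 2.09-fold (adjusted p = 0.028, limma), and passed in 10 of 17 (0.012 to 0.17). For the 5 called rows the gaps between normoxic replicates were at most 0.51, under the stage difference of each.

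Leaving out segmentation normoxia replicate 1 left 1 call (1.59%, beside 2% of all rows) and leaving out replicate 2 left 0 (beside 1.67%), while leaving out either hypoxic gastrula array left 2 (3.17%, beside 5.16%). Without gastrula normoxia replicate 1 there were 11 calls in this comparison (17.5%, beside 16.2% of all rows). The same omission gave 15 calls in gastrula hypoxia (23.8%, beside 22.3%) and 2 between the stages in hypoxia (3.17%, beside 6.91%). Without gastrula normoxia replicate 2 there were also 2 between the stages in hypoxia, slc30a1b and slc35b3 (beside 6.91%). Without a dye term 9 rows were called between stages in normoxia (14.3%, beside 13.2% of all rows).

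**Figure D4:**
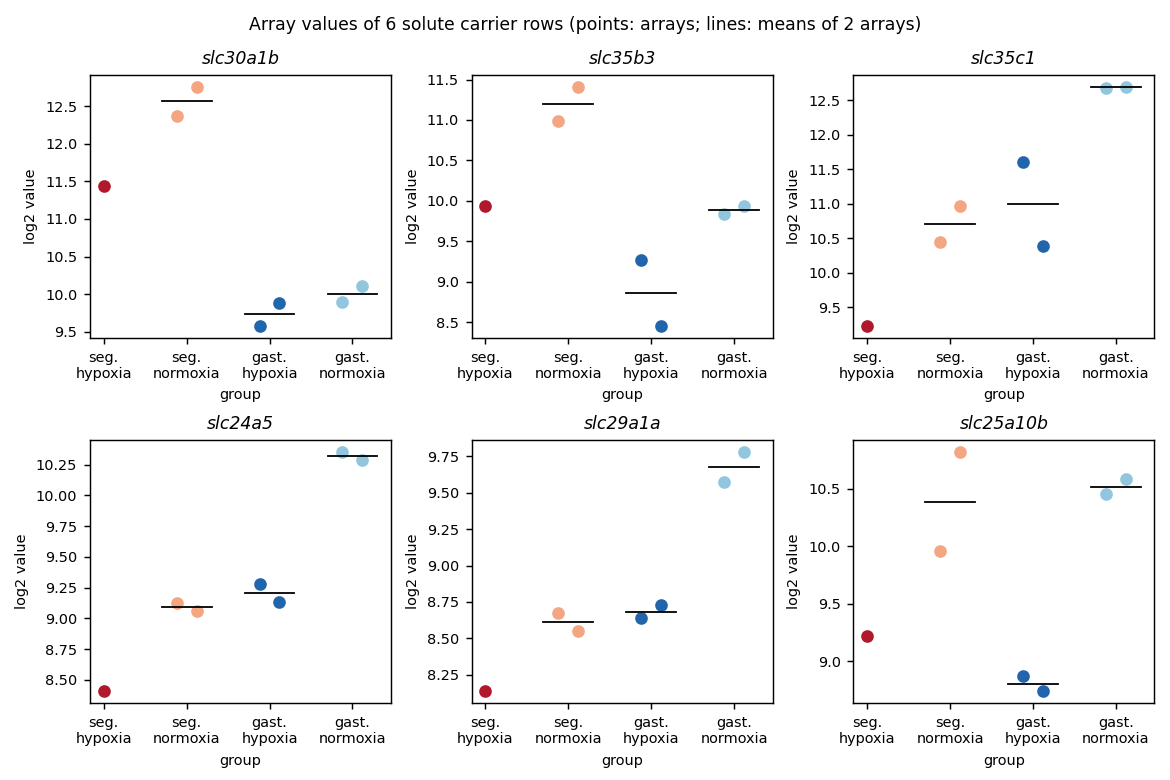
Log2 values of 6 solute carrier rows on each array (points; lines are means of 2 arrays), with groups across. For slc30a1b every segmentation point is above every gastrula point, while slc35c1, slc24a5 and slc29a1a are highest on the normoxic gastrula arrays and slc25a10b is lower in hypoxia than in normoxia at both stages.

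At an unadjusted p under 0.05 there were 13 rows (20.6%, beside 23.6% of all rows). In all, 45 of 63 rows were below 0 at segmentation, with a median of -0.11, beside a median of -0.060 and 40.2% above 0 over all rows. Between arrays of the same dye, 33 of 63 rows had the same sign in Cy3 and in Cy5, with no share over all rows counted. The urea carrier slc14a2 missed the threshold with 7.94 and 8.04 at segmentation, against 8.97 and 9.39 in the gastrula (-1.19 ± 0.25, adjusted p = 0.052, limma). So did slc25a21 at -1.20 ± 0.26, slc43a3b at -1.16 ± 0.27 and slc37a2 at -1.11 ± 0.29. All 5 inorganic ion carriers were below 0, from -1.22 at slc24a5 to -0.27 at slc34a2b. Mitochondrial carriers were evenly split, 8 above and 8 below, and slc25a38a had the highest value among them at 0.60 ± 0.26.

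The gastrula oxygen comparison and the stage comparison in normoxia share the 2 normoxic gastrula arrays, so their values are given side by side and nothing is read from their likeness. For slc24a5 the hypoxia difference was -1.11 and the stage difference -1.22. For slc29a1a they were -0.99 and -1.06, and for slc35c1 -1.69 and -1.98. The row slc35b3 had -1.03 by oxygen and 1.31 by stage.

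Between the stages in hypoxia, again with 1 segmentation array, 0 of 63 rows were called in limma, beside 2.4% of all rows, and 5 had an unadjusted p under 0.05 (7.94%, beside 15.6%). The zinc exporter slc30a1b had the largest difference, with 11.44 at segmentation, against 9.58 and 9.89 in the gastrula (1.68 ± 0.32, adjusted p = 0.085, limma). Without dye it was called, as 1 of 63 rows (1.59%, beside 4.18% of all rows). The differences were 1.27 ± 0.35 for slc35b3, -1.48 ± 0.43 for slc35c1, -0.77 ± 0.23 for slc24a5, -0.62 ± 0.23 for slc29a1a and -0.91 ± 0.38 for slc37a2. Each had the sign that it had in normoxia. The sugar-phosphate exchanger slc37a2 read 12.97 at segmentation, against 14.03 and 13.67 in the gastrula.

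**Figure D5:**
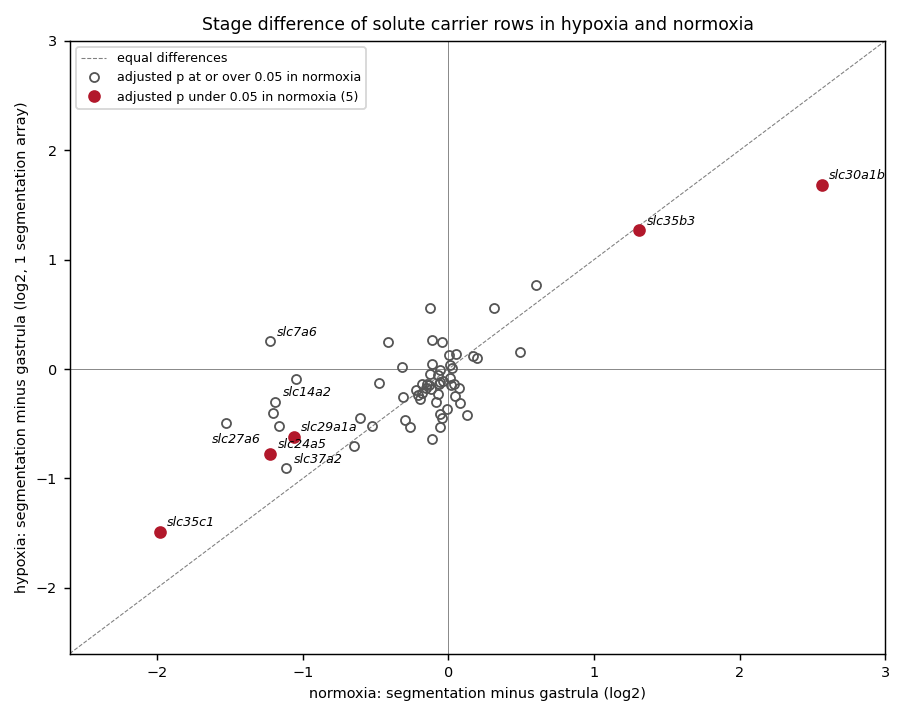
Segmentation minus gastrula (log2) in hypoxia (up, 1 segmentation array) against normoxia (across) for the 63 solute carrier rows, with filled points for the 5 rows past the threshold in normoxia. The filled points run from slc35c1 at -1.98 in normoxia to slc30a1b at 2.56, and the slc7a6 point has opposite signs on the axes (-1.23 in normoxia and 0.25 in hypoxia).

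Other membrane transporters and channels on the array gave a comparison by name, with 43 rows. They included pumps, ABC carriers, aquaporins, ion channels, organic anion carriers, mfsd genes, mpc2a and rhcga. The split goes by symbol, so this list also holds solute carriers named otherwise, such as the slco organic anion carriers. In gastrula hypoxia 31 of 43 were above 0 (beside 51.5% of all rows), with a median of 0.20, beside 0.017 for the 63 slc rows. Most of these 43 rows lay in the lower 6 level bins, where the median over all rows was 0.11. So did 47 of the 63 solute carrier rows, with a median of 0.046 there. After quantile normalization 27 were above 0 (beside 48.6% of all rows), with a median of 0.091. After centring 24 were above 0 (beside 35.1%), with a median of 0.020. In limma 0 were called, and 10 had an unadjusted p under 0.05 (23.3%, beside 26.8% of all rows). The smallest p were those of the potassium channel kcnk1a at -1.38 ± 0.27 (adjusted p = 0.076) and of the calcium channel subunit cacnb2a at 0.78 ± 0.20 (adjusted p = 0.10). By stage in normoxia the mitochondrial pyruvate carrier subunit mpc2a rose by 2.59 ± 0.24 (adjusted p = 0.0069) and the potassium channel kcnj11 fell by 1.69 ± 0.25 (adjusted p = 0.021). In segmentation hypoxia 28 of 43 were above 0 (beside 48.3% of all rows), with a median of 0.076. After centring 23 were above 0 there (beside 40.3%), with a median of 0.019. The difference between these lists was not tested.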

How the data were processed

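The deposited table holds log2 values from single-channel samples labelled with Cy3 or Cy5, from RMA, per the submitters' processing notes, with no version named. Log2 was taken as the scale because values span about 7 to 16; the array design is not given in the sources used here. Of 8 samples, 7 have values. RefSeq identifiers (3055 rows) were matched without versions to the GRCz12tu gene table, which served for names and gene neighbours only: 2663 matched 1 symbol and 392 none. The result of 1 matching row is not reported here. The fit was limma 3.58.1 in R 4.3.3 on all 37157 rows (4 groups plus dye, empirical Bayes, two-sided, Benjamini-Hochberg over all rows), with 2 residual and 2.92 prior degrees of freedom. The fit was also run on simulated data with even, independent noise in every row. That run cannot say how the fit does where spread differs between rows or arrays, as it does here. The number of arrays limits the precision.

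The members, gene lists and tests were chosen with earlier results of these data known. Array values are given for members past the threshold in each comparison or, with fewer than 6, for the 6 smallest p, for the highest and lowest member of families with at least 3 rows, and for oxygen-linked members. Array values of slc25a12, slc25a5 and slc34a2b were added after their values were seen. Alternatives changed the dye term, block, normalization, filter, prior and threshold, or left out each array. Transporter classes follow the family number.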

Additional observations from a re-analysis of the deposited data

How the results depend on the processing

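The number of solute carrier rows called depended on the setting. In gastrula hypoxia, with 0 called, there were 3 without dye (4.76%, beside 8.14% of all rows) and 3 without the lowest 25% of rows (4.76%, beside 5.39%). There were 3 after median centring (4.76%, beside 3.5%) and 1 with an intensity trend in the prior (1.59%, beside 4.61%). At an adjusted p under 0.1 there were 4 (6.35%, beside 11.5%). Between stages in normoxia, with 5 called (7.94%, beside 10.1%), there were 9 without dye (14.3%, beside 13.2%) and 2 with the arrays of these groups alone (3.17%, beside 5.16%). There were 8 without the lowest 25% of rows (12.7%, beside 11.9%) and 9 at an adjusted p under 0.1 (14.3%, beside 15.7%). Counts with 1 array left out are given with the stage comparison. Between stages in hypoxia, with 0 called (beside 2.4% of all rows), there was 1 without dye (1.59%, beside 4.18%). At an adjusted p under 0.1 there was also 1 (1.59%, beside 4.67%). The cause was not tested. With replicate number as a block within each stage in place of dye, 1 row was called between stages in normoxia (slc30a1b, 1.59%, beside 7.1% of all rows). In gastrula hypoxia 0 were called (0% of all rows). Within a stage replicate number and dye coincide, so this block was a dye term fitted for each stage. Same-numbered arrays are not paired by the labels, and their deviations correlated at -0.15 between the gastrula groups and at 0.54 between the normoxic groups. A crossed pairing at the gastrula stage, chosen after seeing the data, gave 10 calls in gastrula hypoxia (beside 14.4% of all rows) and 11 between stages (beside 14.7%). This pairing is among the 17 other settings counted for single rows. In it slc25a10b, slc24a5 and slc29a1a passed in gastrula hypoxia, and the 5 rows called between stages in normoxia passed there. Segmentation hypoxia and the difference between stages stayed at 0 under the settings run.

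Some uncalled gastrula hypoxia differences near 0 changed sign. After quantile normalization slc25a37 was at -0.025, slc6a6b at -0.064 and slc35a3b at -0.13. After centring slc25a37 was at -0.13, slc6a6b at -0.11, slc35a3b at -0.16 and slc38a3a at -0.036. With 1 array left out the range was -0.016 to 0.11 for slc25a37, -0.077 to 0.22 for slc6a6b, -0.089 to 0.12 for slc35a3b, -0.45 to 0.036 for slc6a7 and -0.26 to 0.18 for slc22a6l. Of the named values under 18 settings, 627 kept direction and side of the threshold, 28 lost it, 42 passed it and 15 changed sign. Most named values were uncalled in the main fit, so most of those kept stayed uncalled. All 28 losses were among the 5 rows called between stages in normoxia. These passed in 16, 14, 11, 10 and 6 of 17 other settings. The arrays of 1 stage, or of hypoxia, alone could not test results that rest on the lone hypoxic segmentation array. Background correction and slide could not be varied, since the RMA values were the starting point.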

Other observations

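Several solute carrier rows had wide gaps between the normoxic gastrula replicates, with replicate 2 minus replicate 1 at 1.31 for slc27a6, 1.21 for slc25a12, 0.99 for slc7a6, 0.98 for slc17a5 and -1.10 for slc22a13b. In normoxic segmentation embryos the gaps of slc25a12 and slc22a13b were 0.99 and -1.33. Of the 63 rows, 2 pairs are neighbours in the gene table, slc25a5 with slc25a43 and slc25a29 with slc25a47a. In gastrula hypoxia these pairs differed by -0.10 and -0.14, and by -0.25 and -0.061.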
